A study of Canis lupus familiaris with 15 samples.

Results

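CXCL8 (interleukin 8, ENSCAFG00000003029) and IL1B (interleukin 1 beta, ENSCAFG00000007249) are 2 of the 23630 genes counted in the canine corpus luteum (CL), and were picked by their gene identifiers across every library. Messenger RNA of the CL of 15 clinically healthy cross-breed bitches, aged 2 to 8 years, was sequenced, 1 RNA-Seq library for each dog. The study set the CL that breaks down before birth beside the slowly regressing CL of the non-pregnant dog, the CL of mid-gestation, and the CL after the progesterone receptor was blocked, and set the last of these beside mid-gestation. The contrasts of luteal regression with mid-gestation and with antigestagen were not among those of the study and are given here to complete the set.

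The 5 mid-gestation dogs (Nescafe, Turgay, Dardanel, Gold and Kurtulus) were operated on at days 35 to 40 after ovulation. The 5 antigestagen dogs (Citir, Suzan, Birnur, Seran and Zeynep) were pregnant, at days 40 to 45, and received aglepristone, a blocker of the progesterone receptor, at 10 mg/kg in 2 applications 24 h apart, with tissue taken 24 h after the second. The 3 luteolysis dogs (Amy, Kimba and Senta) were at the prepartum drop in progesterone, which was followed every 6 h from day 58 until 3 consecutive values lay below 2 to 3 ng/ml. The 2 luteal regression dogs (Lissy and Mara) were non-pregnant, at day 65. A description of Nescafe carries another group number, while the title and condition of the same library give mid-gestation. The approvals of the animal work name Germany and Turkey without saying which dogs came from where, so origin and group cannot be told apart here.

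IL1B is made mainly by activated monocytes, macrophages and neutrophils as an inactive precursor, which a caspase cuts in cells that have assembled an inflammasome. The released cytokine binds its receptor on many cell types and acts through the NF-kB pathway, of which the CXCL8 gene is a classical target. CXCL8 is the chemokine best known for drawing neutrophils into tissue, and leukocytes that enter the CL are a known feature of its regression in several mammals. In bulk tissue, fewer cells of a type and less RNA per cell cannot be told apart, and mRNA says nothing of the cut and released protein.

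Library totals ran from 8558743 to 26284315 counts, with a median of 18313707. Over the 14922 genes with enough reads, the log2 levels of Kimba and Senta correlated with r = 0.9739, while Amy reached 0.9085 with Kimba and 0.9225 with Senta, the lowest values within any group. The calls of both cytokines in luteolysis are therefore given with and without Amy, as are the counts of called genes in most lists around them. Levels are given as CPM, the reads of a gene scaled to libraries of equal size, and a difference between groups as a log2 ratio with its standard error (SE), the group named first being the numerator. A gene was called where edgeR's quasi-likelihood test gave p below 0.01 and an adjusted p below 0.1.

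In the luteolysis dogs the CXCL8 level was 86.0 CPM in Amy, 311 CPM in Kimba and 282 CPM in Senta. At mid-gestation it was 2.89 CPM in Nescafe, 7.71 CPM in Turgay, 5.93 CPM in Dardanel, 28.1 CPM in Kurtulus and 177 CPM in Gold. Kimba and Senta were the highest of all 15 dogs and Gold was the third, above the luteolysis dog Amy. Under antigestagen the CXCL8 level was 46.7 CPM in Citir, 4.82 CPM in Suzan, 19.8 CPM in Birnur, 11.0 CPM in Seran and 17.5 CPM in Zeynep. In luteal regression it was 10.1 CPM in Lissy and 4.72 CPM in Mara. Thus every luteolysis dog lay above every antigestagen and luteal regression dog, whereas mid-gestation overlapped with luteolysis through Gold alone.

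The group means of CXCL8 were 226 ± 122 CPM in luteolysis (SD, n = 3), 44.4 ± 74.9 CPM at mid-gestation (n = 5), 20.0 ± 16.0 CPM under antigestagen (n = 5) and 7.42 ± 3.82 CPM in luteal regression (n = 2). The mid-gestation mean is carried by Gold, whose level was 6.30-fold that of Kurtulus, the next dog, and 61.4-fold that of Nescafe. By medians the mid-gestation level fell to 7.71 CPM, below the 17.5 CPM of the antigestagen group. No neighbours in the order of means passed the test: edgeR's adjusted p was 0.211 for luteolysis and mid-gestation, 0.845 for mid-gestation and antigestagen, and 0.582 for antigestagen and luteal regression. Before adjustment the edgeR p for luteolysis and mid-gestation was 0.0353.

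IL1B gave fewer reads than CXCL8 in all 15 libraries, and its dogs fell in another order. In the luteolysis dogs Kimba had 7.27 CPM (184 counts) and Senta 18.8 CPM (324 counts), whereas no IL1B read was found in Amy. A limit of 3 counts, 0.225 CPM, was set for Amy, and its exact 95% Poisson interval reached 0.277 CPM. The level of Senta was 83.4-fold the 3-count limit of Amy, a dog of the same group. At mid-gestation the IL1B level was 0.105 CPM in Nescafe, 1.49 CPM in Turgay, 0.631 CPM in Dardanel, 2.04 CPM in Gold and 0.395 CPM in Kurtulus. The antigestagen dogs had 3.67 CPM in Citir, 1.13 CPM in Suzan, 1.13 CPM in Birnur, 0.887 CPM in Seran and 1.92 CPM in Zeynep. The luteal regression dogs had 0.489 CPM in Lissy and 0.103 CPM in Mara.

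Kimba and Senta were above all other dogs for IL1B. Amy, the 1 dog with no read, was the lowest by counts, but its 3-count limit is above the levels of Mara and Nescafe. Both luteal regression dogs lay below all 5 antigestagen dogs, and all other pairs of groups overlapped. The low values rest on few reads. Mara and Nescafe had 2 counts each, with exact 95% Poisson intervals from 0.0124 to 0.371 CPM and from 0.0127 to 0.379 CPM, which cover counting error only. The group means of IL1B were 8.69 ± 9.47 CPM in luteolysis, 1.75 ± 1.14 CPM under antigestagen, 0.931 ± 0.805 CPM at mid-gestation and 0.296 ± 0.273 CPM in luteal regression. Neighbours in this order again did not pass the test, with an edgeR adjusted p of 0.224, 0.893 and 0.593. Before adjustment the edgeR p for luteolysis and antigestagen was 0.0320.

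**Figure D1:**
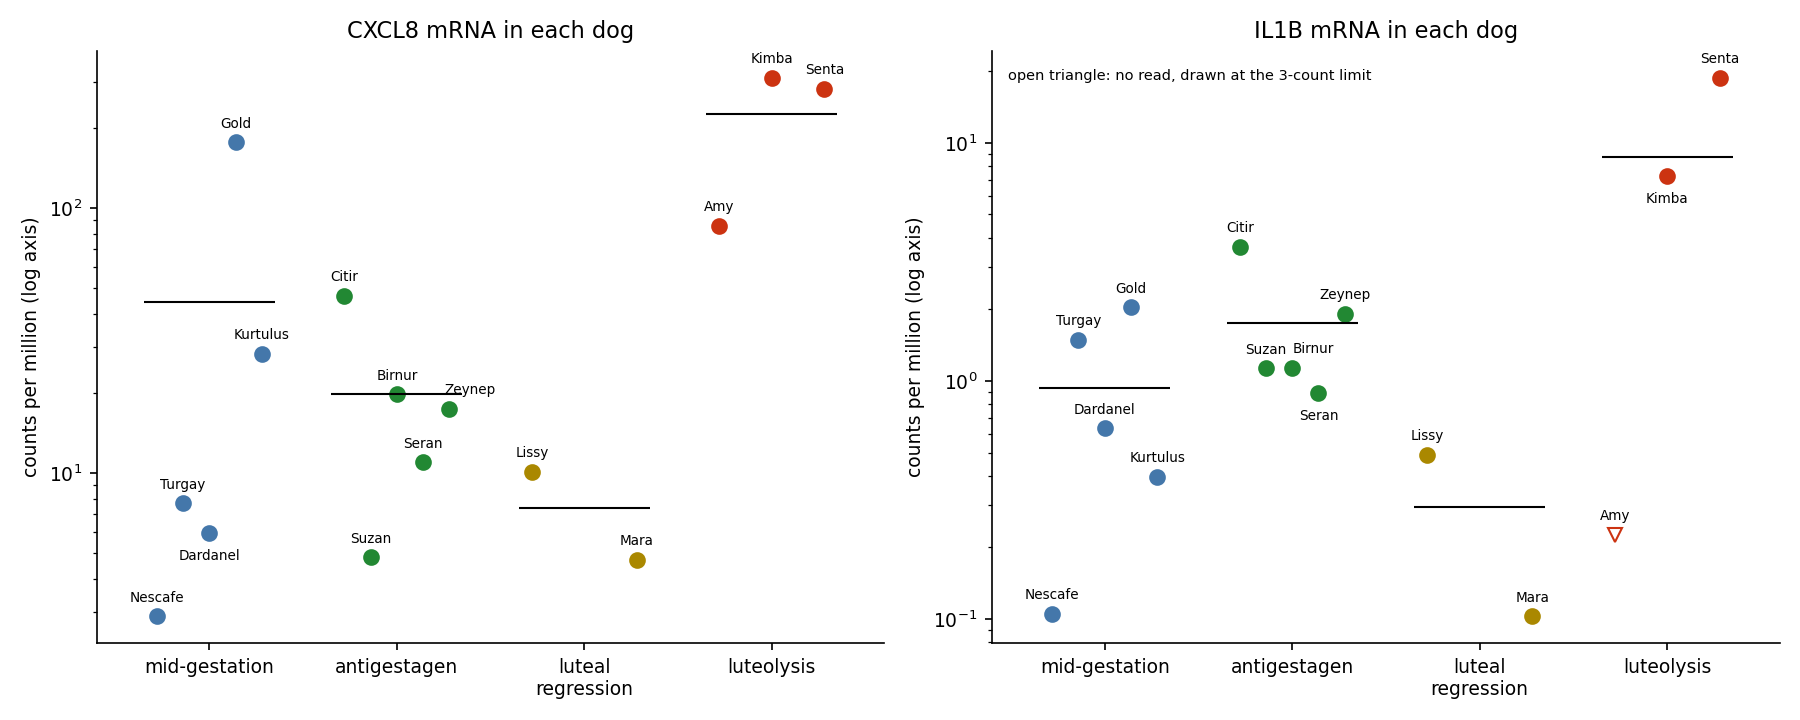
CPM of CXCL8 (left) and IL1B (right) on log axes, 1 point per dog, with the dogs of each group side by side and a line at the group mean. Kimba and Senta are the highest dogs in both panels, Gold stands at 177 CPM of CXCL8 among mid-gestation dogs, and Amy, at 86.0 CPM of CXCL8, had no read of IL1B and is drawn at its 3-count limit of 0.225 CPM.

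Both genes varied more between dogs of a group than most genes did. The SD of the log2 CXCL8 level was 2.32 at mid-gestation, larger than in 99.9% of the genes in the fit, and 1.03 in luteolysis, larger than in 89.3% of them. For IL1B the SD was 3.96 in luteolysis, larger than in 99.9% of genes, and 1.33 at mid-gestation, larger than in 97.8%. The groups took up 56.1% of the variance of log2 CXCL8 and 22.7% of that of log2 IL1B, against a median of 31.9% over all genes. The group therefore described CXCL8 better than most genes and IL1B worse than the median gene.

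Any difference among the 4 groups was tested first. The test called 911 of 14922 genes (6.11%). CXCL8 was among them (F = 6.22, edgeR adjusted p = 0.0978), close to the threshold, and IL1B was not (F = 5.80, edgeR adjusted p = 0.110). Without Amy the F of IL1B was 14.1 (edgeR adjusted p = 0.00490), past the threshold, in a fit that called 2189 of 15009 genes. The call of CXCL8 held in 4 of the 15 fits that left out 1 dog, those without Amy, Citir, Nescafe or Gold, and its F was lowest without Kimba, at 4.25.

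In the contrast luteolysis over mid-gestation, IL1B was higher in luteolysis, by 3.22 on the log2 scale (SE 1.01, edgeR adjusted p = 0.0858), a 9.33-fold ratio of fitted means. The contrast called 1197 of 14669 genes (8.16%), so a call alone is not rare here. The 2 groups overlapped for IL1B, because Amy, with no read, lay within or below the mid-gestation range. Its 3-count limit of 0.225 CPM is above the 0.105 CPM of Nescafe. CXCL8 differed by 2.35 (SE 1.02, edgeR adjusted p = 0.211), which did not pass the test.

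Leaving out single dogs changed both calls of this contrast. Without Gold the CXCL8 ratio was 4.32 (SE 0.82, edgeR adjusted p = 0.0326) and passed. With Gold kept, the CXCL8 ratio lay between 2.05 and 2.75, the value without Amy, whichever other dog was left out, and none of those fits passed. The IL1B call was kept without Amy, at 3.81 (SE 0.75, edgeR adjusted p = 0.00404). It was lost without Kimba (3.34, edgeR adjusted p = 0.161), without Senta (1.96, edgeR adjusted p = 0.550) and without any single mid-gestation dog. In those last fits the ratio stayed between 2.94 and 3.72, and the edgeR adjusted p lay between 0.105 without Gold and 0.164 without Dardanel. Without Gold the edgeR p of IL1B before adjustment was 0.00534, against 0.00617 with every dog. That fit called 703 of 14672 genes, fewer than the fit with every dog.

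In the contrast luteolysis over luteal regression, CXCL8 was 30.5-fold and IL1B 28.6-fold by fitted means, but neither passed the test. The CXCL8 ratio was 4.93 (SE 1.64, edgeR adjusted p = 0.128), with no overlap between the 3 and the 2 dogs. The IL1B ratio was 4.84 (SE 1.62, edgeR adjusted p = 0.129), and Amy, with no read, overlapped with the luteal regression dogs. Here 754 of 14768 genes were called (5.11%). Without Amy both genes passed, CXCL8 at 5.29 (edgeR adjusted p = 0.0775) and IL1B at 5.40 (edgeR adjusted p = 0.0146). That fit called 1593 of 14861 genes, and the unadjusted edgeR p of CXCL8 was 0.00730, against 0.00873 with every dog. Neither gene passed without Kimba (edgeR adjusted p = 0.140 for CXCL8 and 0.126 for IL1B) or Senta (0.312 and 0.417). CXCL8 was at 5.58 without Lissy and 4.49 without Mara, and IL1B at 6.32 and 4.14. DESeq2 called both genes with all dogs kept, with an adjusted p of 0.0119 for CXCL8 and 0.00932 for IL1B.

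In the contrast luteolysis over antigestagen, which sets natural beside induced breakdown, CXCL8 was higher in natural luteolysis by 3.52 (SE 1.05, edgeR adjusted p = 0.0971), a fitted ratio of 11.4-fold. The contrast called 687 of 14473 genes (4.75%). The lowest luteolysis dog, Amy at 86.0 CPM, was above the highest antigestagen dog, Citir at 46.7 CPM. IL1B differed by 2.36 (SE 1.00, edgeR adjusted p = 0.224), did not pass, and overlapped through Amy.

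The CXCL8 call against antigestagen stood close to its threshold. It was kept without Amy (3.91, edgeR adjusted p = 0.0349) and without Citir (4.10, edgeR adjusted p = 0.0893). It was lost without Kimba (3.22), Senta (3.31), Suzan (3.26), Birnur (3.52), Seran (3.35) or Zeynep (3.47), where the edgeR adjusted p ran from 0.149 to 0.359. The size of the ratio thus moved little while the call changed. For IL1B the ratio moved too, to 2.95 without Amy (edgeR adjusted p = 0.0196), which passed, and to 1.10 without Senta (edgeR adjusted p = 0.838). For both genes the adjusted p was smallest without Amy and largest without Senta. The adjusted p also depends on how many other genes differ, and 0.0414% of all genes were called without Senta, against 1.60% without Kimba. Before adjustment the edgeR p of CXCL8 was 0.0124 without Senta and 0.0135 without Kimba.

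**Figure D2:**
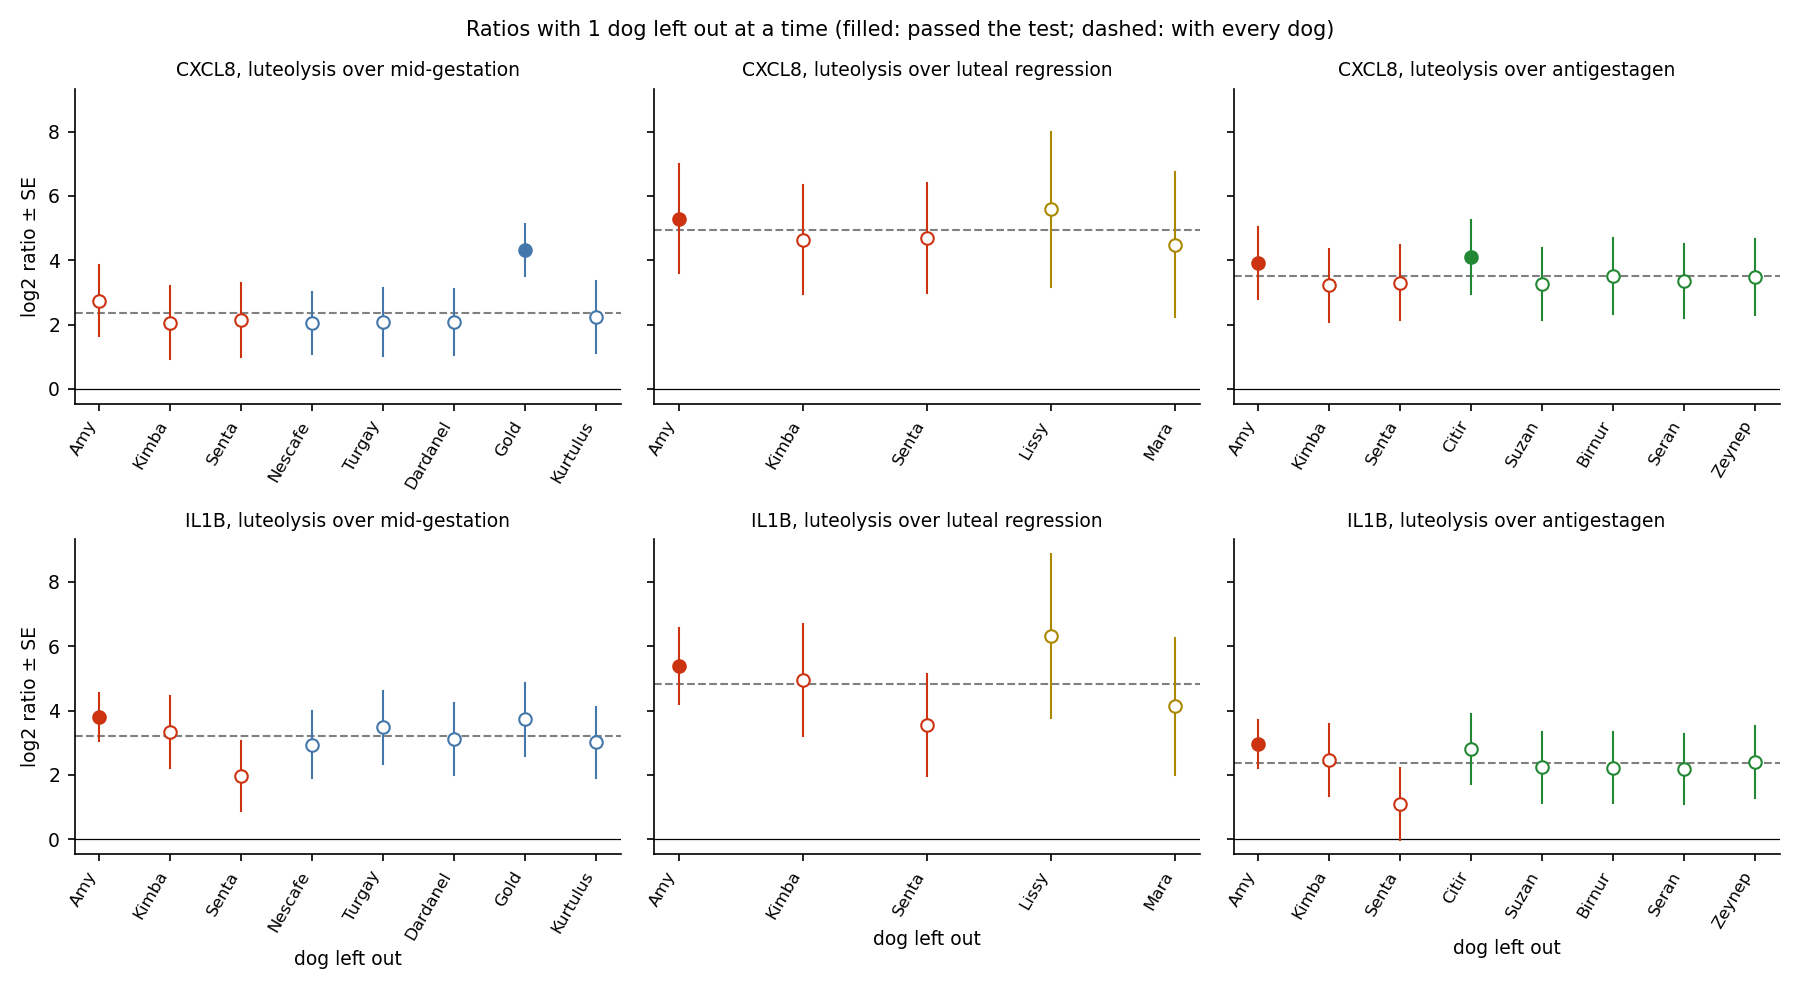
Log2 ratios of CXCL8 (top) and IL1B (bottom) in the 3 contrasts with luteolysis when the dog named on the horizontal axis is left out, with SE, filled where the test passed, and a dashed line at the value with every dog. Leaving out Gold takes CXCL8 in luteolysis over mid-gestation to 4.32, and leaving out Senta takes IL1B in luteolysis over antigestagen to 1.10.

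In the contrast antigestagen over mid-gestation neither gene passed the test. Aglepristone-treated dogs differed from mid-gestation dogs in CXCL8 by -1.17 (SE 0.92, 95% interval -3.12 to 0.79, edgeR adjusted p = 0.845) and in IL1B by 0.87 (SE 0.93, 95% interval -1.12 to 2.85, edgeR adjusted p = 0.893). The sign of the CXCL8 difference rested on Gold, without which it was 0.81 (edgeR adjusted p = 0.978). edgeR called 0 of 14399 genes here (0%), with 980 genes at an unadjusted p below 0.05, and DESeq2 called 85, neither CXCL8 nor IL1B among them.

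Luteal regression had the lowest mean of both genes, but neither gene was called against mid-gestation or antigestagen. Luteal regression over mid-gestation was -2.58 for CXCL8 (SE 1.40, 95% interval -5.56 to 0.40, edgeR adjusted p = 0.400) and -1.62 for IL1B (SE 1.42, 95% interval -4.64 to 1.41, edgeR adjusted p = 0.593). Without Gold the CXCL8 value was -0.57. edgeR called 0 of 14685 genes (0%), with 2073 at an unadjusted p below 0.05, and DESeq2 called 332. A fit on the dogs of these groups alone called 770 genes, with an edgeR adjusted p of 0.373 for CXCL8 and 0.419 for IL1B.

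Luteal regression over antigestagen was -1.41 for CXCL8 (SE 1.31, 95% interval -4.21 to 1.38, edgeR adjusted p = 0.582) and -2.48 for IL1B (SE 1.46, 95% interval -5.58 to 0.62, edgeR adjusted p = 0.380). For IL1B both luteal regression dogs were below all 5 antigestagen dogs, but the ratio did not pass the test. edgeR called 0 of 14578 genes (0%), with 2496 at an unadjusted p below 0.05, and DESeq2 called 918.

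The difference between the natural and the induced effect was tested directly, as luteolysis over luteal regression minus antigestagen over mid-gestation, which share no dogs. It was 6.09 for CXCL8 (SE 1.87, edgeR adjusted p = 0.225) and 3.97 for IL1B (SE 1.78, edgeR adjusted p = 0.377), neither past the test. Both 95% intervals lay above 0, from 2.12 to 10.1 for CXCL8 and from 0.18 to 7.76 for IL1B, which restates an unadjusted edgeR p below 0.05. edgeR called 0 of 14922 genes in this test (0%), with 1869 at an unadjusted p below 0.05, and DESeq2 called 494 genes, CXCL8 among them at an adjusted p of 0.0298. Without Amy both genes passed in edgeR, CXCL8 at 6.45 (adjusted p = 0.0984) and IL1B at 4.54 (adjusted p = 0.0843). That fit called 684 of 15009 genes, more than the fit with every dog. Before adjustment the edgeR p of CXCL8 was 0.00442 without Amy, against 0.00515 with every dog. For IL1B it was 0.00324 against 0.0412. Some other left-out dogs lowered the values. CXCL8 was at 4.09 without Gold (edgeR adjusted p = 0.294). IL1B was at 2.69 without Senta (SE 1.79), with an edgeR p of 0.154 before and 0.731 after adjustment.

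**Figure D3:**
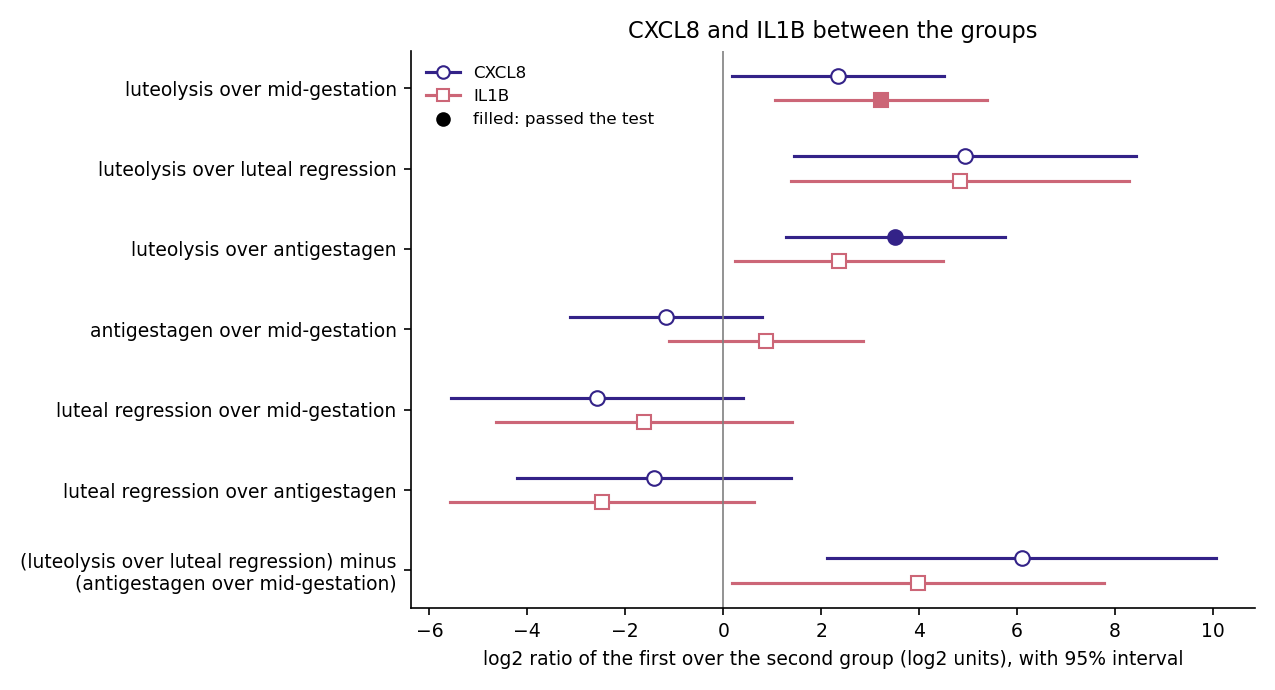
Log2 ratios of CXCL8 (circles) and IL1B (squares) between groups with 95% intervals, filled where the test passed. The filled symbols are IL1B in luteolysis over mid-gestation (3.22) and CXCL8 in luteolysis over antigestagen (3.52), and the intervals of the 3 contrasts without luteolysis all include 0.

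The 2 cytokines were then set against each other within each dog, where the scaling of the libraries cancels. IL1B made 2.34 reads per 100 CXCL8 reads in Kimba and 6.65 in Senta, and 0 in Amy. The antigestagen dogs had 7.86 in Citir, 23.4 in Suzan, 5.71 in Birnur, 8.06 in Seran and 11.0 in Zeynep. At mid-gestation it was 3.64 in Nescafe, 19.3 in Turgay, 10.6 in Dardanel, 1.15 in Gold and 1.40 in Kurtulus, and in luteal regression 4.83 in Lissy and 2.17 in Mara. Gold thus had the most CXCL8 and the fewest IL1B reads per CXCL8 read of its group.

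With Amy at its 3-count limit, the mean log2 share of IL1B to CXCL8 reads was -5.97 ± 2.38 in luteolysis (SD, n = 3) and -3.34 ± 0.77 under antigestagen (n = 5). The difference of -2.62 gave p = 0.0357 in a two-sided exact permutation test and 0.214 after adjustment over the 6 contrasts, so it did not pass. Without Amy the difference was -1.32 (exact permutation p = 0.143), and the value of Amy is itself a limit and not a measured share. In luteolysis over mid-gestation the difference of -1.37 was -0.07 without Amy. The other 5 contrasts gave an exact p of 0.0952 or more, and luteolysis over luteal regression cannot go below 0.100 with these numbers of dogs.

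Across the 15 dogs, log2 CXCL8 and log2 IL1B correlated with Pearson's r = 0.594 (permutation p = 0.0194, adjusted 0.0488) and Spearman's rho = 0.586 (permutation p = 0.0244, adjusted 0.0488), where the adjustment covers the 4 coefficients computed. Without Kimba and Senta, the dogs farthest from the CXCL8 median, r was 0.233 (permutation p = 0.442) and rho 0.368 (permutation p = 0.216). Amy stayed among these 13 dogs, so these values do not show that the relation rests on Kimba and Senta alone. With 1 dog left out the relation kept a permutation p below 0.05 in 13 of 15 cases, and lost it without Kimba (r = 0.51) or Senta (r = 0.46). Without Amy, which had much CXCL8 and no IL1B read, r was 0.83. Gold stood high for both, at rank 3 of the dogs for CXCL8 and rank 4 for IL1B. The deviations from the group means gave r = 0.556 and rho = 0.621, which are a description and were not tested.

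**Figure D4:**
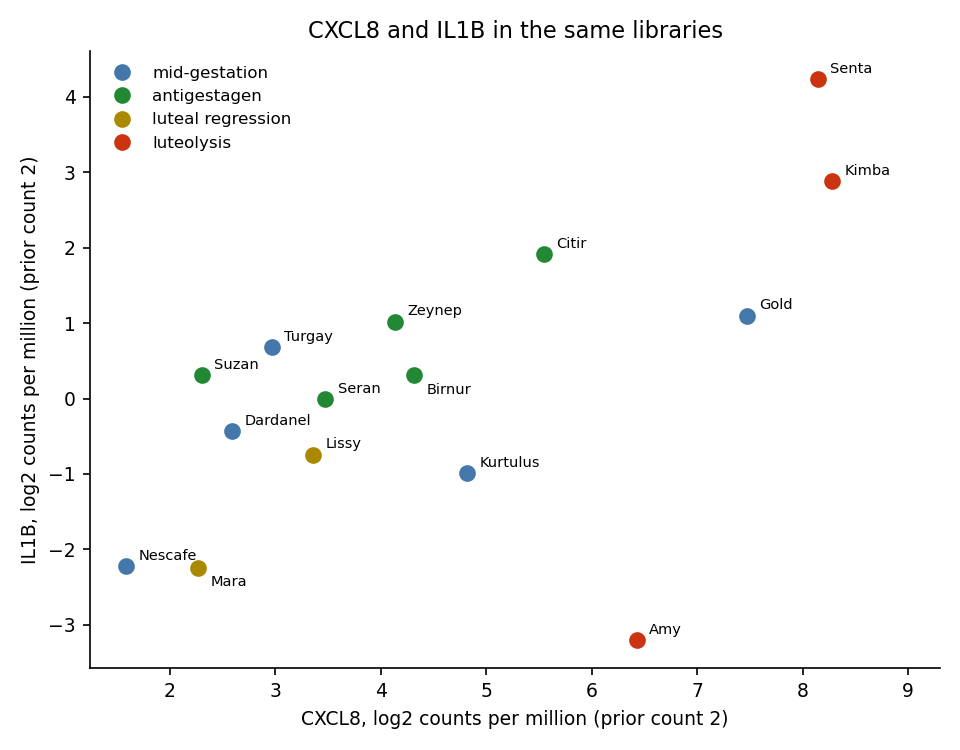
Log2 CPM of CXCL8 (horizontal) against IL1B (vertical) in the 15 dogs, coloured by group. Kimba and Senta stand at the upper right, and Amy at the bottom right without an IL1B read. The relation over all dogs (r = 0.594) drops to r = 0.233 without Kimba and Senta but with Amy kept.

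The genes that followed IL1B most closely were not those that followed CXCL8. Among 14921 other genes, by Pearson's r of log2 levels over the same 15 libraries and among genes with a symbol, the nearest to IL1B were CCL3 (r = 0.942), EMR4 (0.928), CCL4 (0.912), CTGF (0.880) and NABP1 (0.877). CCL3 and CCL4 are chemokines of activated macrophages, EMR4 belongs to a family of adhesion receptors of myeloid cells, and CTGF is a secreted matrix protein. CCL3 was first and CXCL8 only number 616. Nearest to CXCL8 were OSM (r = 0.842), an interleukin 6 family cytokine, CCRN4L (0.840), CH25H (0.825), which makes 25-hydroxycholesterol, FGL2 (0.825) and POLR3D (0.813), with IL1B as number 491. These are descriptions, given without a test. Amy had 0 reads of IL1B, 1 of CCL3 and 2 of EMR4, and the ranks were not computed without Amy.

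CCL3 shows the likeness to IL1B dog by dog. Its level was 127 CPM in Kimba and 183 CPM in Senta, against 0.0751 CPM in Amy, from a single read. Gold, at 6.63 CPM, had the highest CCL3 level at mid-gestation, where the others had 0.575 to 3.34 CPM. OSM followed CXCL8 in another way, with 4.11 CPM in Kimba, 9.33 CPM in Senta and 4.18 CPM in Gold, but 0.375 CPM in Amy. Amy was therefore high for CXCL8 and low for both of these genes.

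Genes around the 2 cytokines were taken from lists of their pathway and of the cells that could hold them. An identifier could be paired with a symbol only for genes that the study itself listed as differing between these dogs, so the counts and directions below are not independent of the luteolysis effect. Over all genes tested, the median ratio was 0.02 in luteolysis over mid-gestation, 0.05 in luteolysis over luteal regression and 0.02 in luteolysis over antigestagen. The receptors IL1R1, CXCR1 and CXCR2 were not analysed here for want of an identifier. Leaving out a luteolysis dog changed the calls of all genes, so list counts are read against the share of all genes called in the same fit. With every dog that share was 8.16% over mid-gestation, 5.11% over luteal regression and 4.75% over antigestagen. Without Amy it rose to 16.5% over mid-gestation, 10.7% over luteal regression and 14.8% over antigestagen. Without Kimba it was 3.26%, 7.05% and 1.60%, and without Senta 0.762%, 0.0338% and 0.0414%. The 14 genes named from the lists had 23 calls in the 3 contrasts with luteolysis, of which 22 were kept without Amy, 10 without Kimba and 4 without Senta.

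Of the other IL1 family ligands, 3 could be measured, with a median ratio of 1.58 in luteolysis over mid-gestation, where IL1RN and IL36G rose. IL1RN, the antagonist that blocks the IL1 receptor, was at 6.38 CPM in Amy, 37.7 CPM in Kimba and 42.0 CPM in Senta, against 4.10 to 18.4 CPM at mid-gestation, with Gold highest. Its ratio was 1.69 over mid-gestation (SE 0.51, edgeR adjusted p = 0.0737) and 2.46 over luteal regression (SE 0.72, edgeR adjusted p = 0.0904), and 1.40 over antigestagen did not pass (edgeR adjusted p = 0.164). IL36G, another proinflammatory ligand, was highest in Amy, at 20.0 CPM, with 4.70 CPM in Kimba and 8.00 CPM in Senta, against 3.62 ± 1.45 CPM at mid-gestation (ratio 1.58, edgeR adjusted p = 0.0737). Without Amy the IL36G ratio was 0.81 and no longer passed (edgeR adjusted p = 0.284), whereas IL1RN passed in all 3 contrasts, at 2.17 over mid-gestation, 2.90 over luteal regression and 1.88 over antigestagen.

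Among 4 IL1 family receptors, 2 rose in luteolysis over mid-gestation, 1 in luteolysis over antigestagen and 0 in luteolysis over luteal regression by edgeR. DESeq2 called 3 of them over luteal regression, where it called 1563 of all 14768 genes. Without Amy the counts for the IL1 family receptors were 2 over mid-gestation, 2 over antigestagen and 4 over luteal regression, in fits that called 16.5%, 14.8% and 10.7% of all genes. IL1R2, the decoy receptor that binds IL1 without signalling, was at 3.00 CPM in Amy, 11.0 CPM in Kimba and 4.58 CPM in Senta, all above the mid-gestation dogs (1.41 ± 0.65 CPM; ratio 2.14, SE 0.47, edgeR adjusted p = 0.0231). IL1RL1, the receptor of interleukin 33, was at 169 CPM in Kimba and 42.1 CPM in Senta but 0.676 CPM in Amy. Its ratio was 4.88 over mid-gestation (edgeR adjusted p = 0.0258) and 4.51 over antigestagen (edgeR adjusted p = 0.0491), and without Amy 5.45 and 5.08. Of the IL1B processing list only NLRP1 and CASP4 could be measured and neither was called by edgeR in any contrast. Without Amy, edgeR called 1 of them over mid-gestation, 2 over luteal regression and 1 over antigestagen, in fits that called 16.5%, 10.7% and 14.8% of all genes.

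The IL1 receptor and NF-kB signalling list held 10 measured genes, of which 7 rose in luteolysis over mid-gestation, 3 in luteolysis over luteal regression and 0 in luteolysis over antigestagen, beside 8.16%, 5.11% and 4.75% of all genes called. Without Amy these counts were 8, 7 and 5, with 2 and 1 genes lower in the first and the last, where all genes were called at 16.5%, 10.7% and 14.8%. Leaving out Kimba gave 0, 3 and 0, and leaving out Senta 0 in each, in fits that called 7.05% of all genes or less. NFKBIA, the inhibitor that NF-kB induces against itself, was at 93.2 CPM in Amy, 219 CPM in Kimba and 394 CPM in Senta, against 108 ± 32.5 CPM at mid-gestation (ratio 1.12, SE 0.34, edgeR adjusted p = 0.0712). TNFAIP3, which also dampens NF-kB, was at 9.91 CPM in Amy, 78.9 CPM in Kimba and 94.5 CPM in Senta, against 17.1 ± 11.1 CPM at mid-gestation (ratio 1.84, SE 0.56, edgeR adjusted p = 0.0784). Gold had the highest level of both at mid-gestation, at 165 CPM of NFKBIA and 36.3 CPM of TNFAIP3.

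Among 5 other CXC chemokines, 2 rose in luteolysis over mid-gestation and 1 in luteolysis over luteal regression, and 1 fell in luteolysis over antigestagen. Of all genes, 8.16%, 5.11% and 4.75% were called in these contrasts. CXCL10, which draws T cells, rose over mid-gestation by 1.52 (edgeR adjusted p = 0.0464) and over luteal regression by 1.98 (edgeR adjusted p = 0.0802). CXCL16 rose over mid-gestation by 1.23 (edgeR adjusted p = 0.0495). Without Amy the CXC chemokines that rose were 2 over mid-gestation, 3 over luteal regression and 2 over antigestagen, beside 16.5%, 10.7% and 14.8% of all genes called. PPBP, a platelet chemokine that shares receptors with CXCL8, went the other way. It was at 0.406 to 0.901 CPM in luteolysis and 1.12 to 12.5 CPM under antigestagen without overlap (ratio -2.78, SE 0.75, edgeR adjusted p = 0.0686). Of 3 CXC chemokine receptors, 1 rose over mid-gestation and over luteal regression. It was ACKR1, which binds CXCL8 on venular endothelium without signalling, at 78.0 ± 42.0 CPM in luteolysis against 27.1 ± 9.65 CPM at mid-gestation (ratio 1.53, edgeR adjusted p = 0.0496) and 9.41 ± 4.96 CPM in luteal regression (ratio 3.05, edgeR adjusted p = 0.0451).

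Of 9 measured genes known to be induced by IL1, 6 rose in luteolysis over mid-gestation, 4 in luteolysis over luteal regression and 4 in luteolysis over antigestagen, with median ratios of 2.48, 3.57 and 1.61. Of all genes, 8.16%, 5.11% and 4.75% were called there. Without Amy the counts were 7, 8 and 7, where 16.5%, 10.7% and 14.8% of all genes were called, and without Senta 2, 0 and 0, where 0.762%, 0.0338% and 0.0414% were. SOD2, the mitochondrial superoxide dismutase, stood high in Amy too, at 836 CPM, with 1491 CPM in Kimba and 1796 CPM in Senta. These 3 dogs were above all others, and SOD2 rose by 1.72 over mid-gestation (edgeR adjusted p = 0.00809), 2.05 over luteal regression (edgeR adjusted p = 0.0393) and 1.44 over antigestagen (edgeR adjusted p = 0.0208).

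In each of the other 8 induced genes, CCL2, CCL3, CCL4, CCL20, ICAM1, LIF, TNFAIP6 and MMP1, Amy lay below Kimba and Senta. MMP1, the interstitial collagenase, was at 322 CPM in Kimba and 280 CPM in Senta but 0.225 CPM in Amy, against 0.0525 to 0.883 CPM at mid-gestation. It rose over mid-gestation by 9.13 (SE 1.57, edgeR adjusted p = 0.00890) and over antigestagen by 7.30 (SE 1.42, edgeR adjusted p = 0.0246), and without Amy by 9.72 and 7.87. TNFAIP6, a matrix-binding protein, was at 31.7 CPM in Kimba, 43.1 CPM in Senta and 1.95 CPM in Amy. It rose over mid-gestation, luteal regression and antigestagen by 2.58, 3.57 and 3.51 (edgeR adjusted p = 0.0407, 0.0768 and 0.0246). CCL20, a chemokine for dendritic cells and lymphocytes, had 5.46 CPM in Kimba and 4.06 CPM in Senta, and no read in Amy or in any mid-gestation dog.

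**Figure D5:**
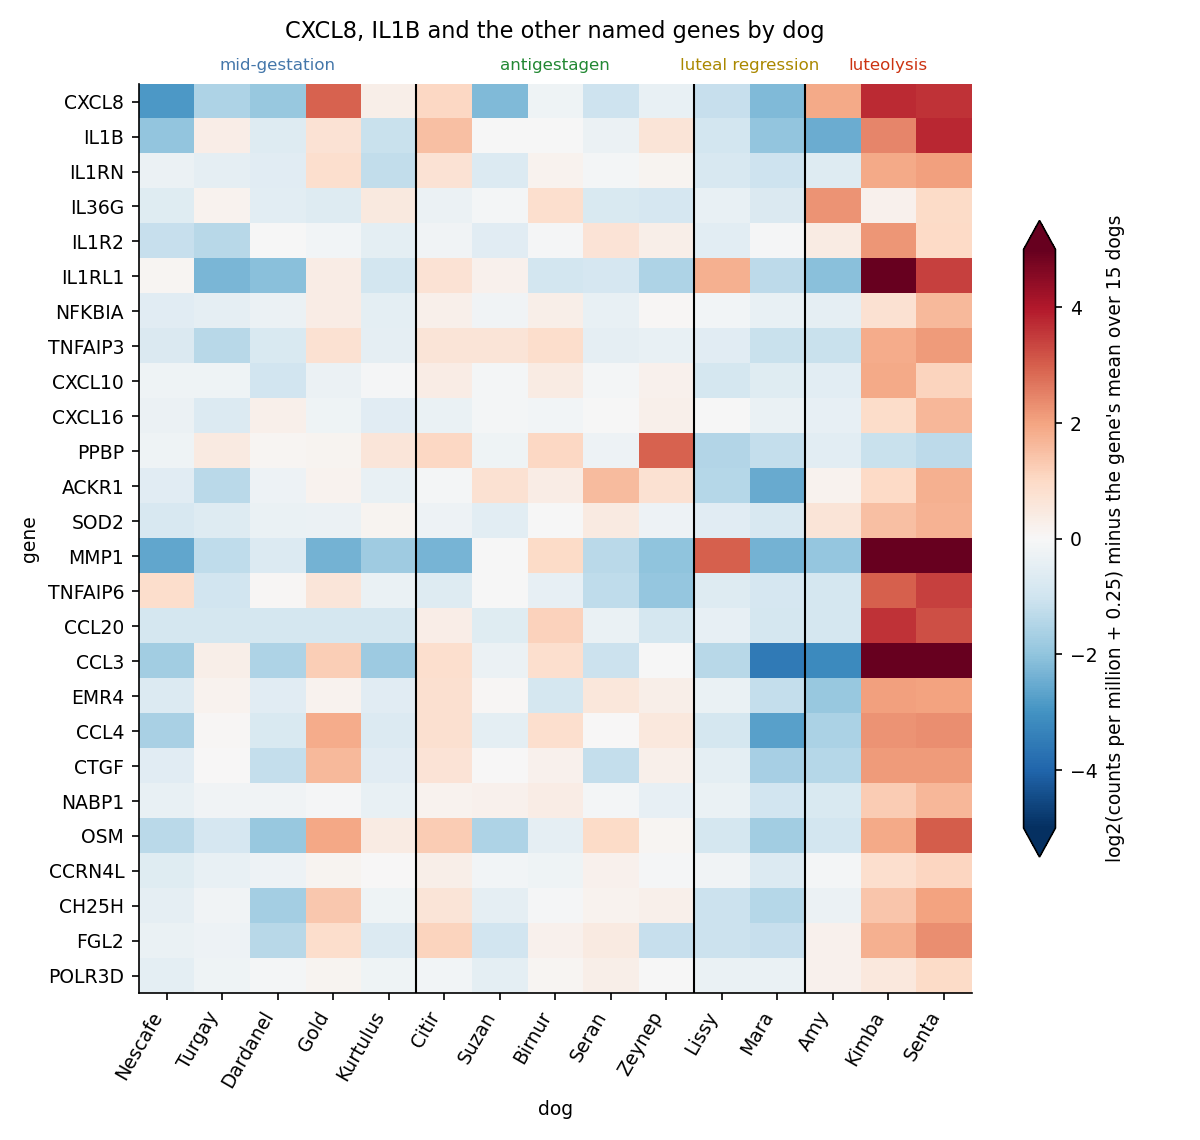
Colours give log2(CPM + 0.25) minus the mean over the 15 dogs for CXCL8, IL1B and 24 other named genes (rows) in each dog (columns, by group); colours saturate beyond 5 log2 units. Kimba and Senta are red in most rows, Amy is red for CXCL8, IL36G and SOD2 but blue for IL1B, MMP1 and CCL3, and Gold is red for CXCL8, CCL4, CTGF and OSM.

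Of the 14 genes named from these lists, Amy was the lowest of the 3 luteolysis dogs for 12 (85.7%), against 41.5% of all 14922 genes in the fit. Gold was the highest of the 5 mid-gestation dogs for 5 of the 14 (35.7%), against 13.7% of all genes. Both shares are descriptions of genes picked in part for their luteolysis values.

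Markers of leukocytes moved with the 2 cytokines in part. The 5 neutrophil markers measured (S100A9, LTF, CSF3R, MMP9 and ITGAM) summed to 12.6 CPM in Amy, 44.5 CPM in Senta and 98.1 CPM in Kimba. They ranged from 33.1 to 58.7 CPM under antigestagen, 21.0 to 44.4 CPM at mid-gestation, where Gold was highest, and 8.47 to 11.9 CPM in luteal regression. In luteolysis over mid-gestation 0 of the 5 rose and 1, MMP9, fell. In luteolysis over luteal regression 1 rose, ITGAM, and over antigestagen 0 were called, although CXCL8 passed there. Without Amy the neutrophil markers that rose were 1, 3 and 0 in these 3 contrasts, and none fell, beside 16.5%, 10.7% and 14.8% of all genes called. None of the 5 was at 0 in any dog, and others of the list, MPO and S100A8 among them, were not analysed here. Their part in the CXCL8 and IL1B results was not tested.

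The 6 measured monocyte and macrophage markers summed to 478 to 775 CPM in luteolysis, 381 to 846 CPM at mid-gestation, 377 to 1085 CPM under antigestagen and 190 to 230 CPM in luteal regression. LYZ, lysozyme, was the 1 marker that rose over mid-gestation (ratio 2.03, edgeR adjusted p = 0.0189) and over antigestagen (ratio 2.40, edgeR adjusted p = 0.0179), while 3 rose over luteal regression. Without Amy the monocyte and macrophage markers that rose were 2 over mid-gestation, 4 over luteal regression and 1 over antigestagen, beside 16.5%, 10.7% and 14.8% of all genes called. Amy was at 478 CPM in this sum, Kimba at 661 CPM and Senta at 775 CPM, where IL1B ran from no read to 18.8 CPM. Their part in the results was not tested either. Of the T cell markers, CD3E and CD2 summed to 2.55 to 4.88 CPM in luteolysis and 7.37 to 19.7 CPM at mid-gestation, and CD2 fell over mid-gestation and over antigestagen. Of the luteal cell markers only PRLR, the prolactin receptor, could be measured. It was present in every dog, at 65.8 to 175 CPM, and was called in no contrast.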

How the data were processed

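The deposited table held raw read counts per gene for 15 CL libraries, 1 per dog. Per the labels and the submitters' processing notes, the authors used bcl2fastq (1.8.4), aligned with STAR (2.5.1b) to CanFam3.1 and counted with featureCounts. The 3148 counts of at least 10000 hold only 4 significant digits. Groups followed the labels. The 14922 genes that averaged 10 counts or more in any group entered edgeR (4.0.16, R 4.3.3) with TMM scaling and quasi-likelihood tests on all dogs, with Benjamini-Hochberg adjustment. Low log values used a prior count of 2. The authors' own fold changes and p-values in the supplementary lists were not used, only their symbols. CXCL8 and IL1B were matched by RefSeq accession. Named genes were the list genes called in a luteolysis contrast (at most the 4 of smallest p per list), IL1RN, IL1R2, NFKBIA and TNFAIP3, and the 5 genes nearest to each cytokine. Genes and lists were chosen with earlier results of these data known. The code was tested on simulated data. The labels record no batch. The third luteal regression dog of the study was not analysed here. A neutrophil marker of the planned list is not reported here and is left out of its counts and sums.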

Additional observations from a re-analysis of the deposited data

Results flagged for a closer look

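The CXCL8 level of Gold at mid-gestation lay apart from the other 4 dogs of its group. The gap between its 177 CPM and the next dog, Kurtulus at 28.1 CPM, was 0.855 of the whole range of the group, above the limit of Dixon's test for 5 dogs. Chance alone marks about 1 in 20 such groups if the values are normally distributed, which was not tested for CPM. Both genes were screened in each group of 5 dogs, on the CPM and the log2 scale, so the rate over the whole screen is higher. On the log2 scale the share was 0.450 and below the limit, and no other group of 5 dogs was marked for either gene. The groups of 2 and 3 dogs, and with them the missing IL1B of Amy, could not be screened in this way.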

How the results depend on the processing

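The direction of both genes in the 3 contrasts with luteolysis was the same under every scaling, filter, tool and left-out dog tried, with CXCL8 between 2.05 and 4.71 over mid-gestation, 4.49 and 5.58 over luteal regression, and 3.22 and 4.18 over antigestagen. IL1B ran from 1.96 to 4.31, 3.56 to 6.32 and 1.10 to 2.95. The calls were not as stable. With 2 or 3 dogs in a group, and IL1B at 0 to 39 counts in 13 of 15 libraries, the depth and number of dogs limit what can be called. The scaling moved the median gene by -0.10 at most (upper quartile, luteolysis over luteal regression).

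With DESeq2's size factors in edgeR the F of CXCL8 over the 4 groups was 6.13, and with upper-quartile scaling 5.99, both just short of the threshold. DESeq2's own tests passed CXCL8 in luteolysis over luteal regression (4.91) and in natural minus induced (6.05), and IL1B in luteolysis over luteal regression (4.86) and over the 4 groups (likelihood ratio 17.2). limma-voom with weights passed CXCL8 over mid-gestation (3.64), over luteal regression (5.20) and in natural minus induced (5.74), but not IL1B over mid-gestation (3.79). Fits on the compared groups alone lost CXCL8 over antigestagen (3.51) and IL1B over mid-gestation (3.21). Called genes over antigestagen then fell from 687 to 3, over luteal regression from 754 to 0 and over mid-gestation from 1197 to 422, but rose from 0 to 770 in luteal regression over mid-gestation, while voom called 2833, 3646 and 3220 and DESeq2 1481, 1563 and 1744. The causes were not tested.

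Leaving out both Amy and Gold, chosen after seeing the data, passed CXCL8 over mid-gestation (4.71), over luteal regression (5.29) and in natural minus induced (4.48), and IL1B over luteal regression (5.40), over antigestagen (2.95) and over the 4 groups (16.6). This setting called 2181 of 14790 genes over mid-gestation, 1470 of 14861 over luteal regression and 2029 of 14620 over antigestagen. It called 485 of 15004 in natural minus induced and 1874 of 15004 over the 4 groups. With every dog the numbers called were 1197, 754, 687, 0 and 911. CXCL8 in antigestagen over mid-gestation turned to 0.81.

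With 1 dog left out, CXCL8 ranged from 2.05 to 4.32 over mid-gestation, 4.49 to 5.58 over luteal regression, 3.22 to 4.10 over antigestagen, -1.74 to 0.81 in antigestagen over mid-gestation, 4.09 to 6.75 in natural minus induced and 4.25 to 17.6 for the F over the groups. IL1B ranged from 1.96 to 3.81, 3.56 to 6.32 and 1.10 to 2.95 in the luteolysis contrasts, 2.69 to 5.45 in natural minus induced and 2.15 to 14.1 for the F. Fits without a luteal regression dog assume that the lone dog varied like the others. The log2 share of IL1B to CXCL8 ranged from -2.05 to 0.28 in luteolysis over luteal regression, turning without Amy, and from -0.93 to 0.22 in luteal regression over mid-gestation, turning without Mara or Turgay. The correlation over dogs ran from 0.46 to 0.83 and was 0.50 with a prior count of 0.5 (permutation p = 0.0570). IL1B could not be tested at a mean count of 50 in the contrasts without luteolysis. No paired analysis was possible because no dog or number is shared between groups.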
